A study of Mus musculus with 24 samples.

Results

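The nuclear genes of oxidative phosphorylation were examined in haematopoietic stem cells (HSCs) of young and old mice. Members were the rows of the deposited table whose gene symbol begins with *Nduf*, *Uqcr*, *Atp5* or *Cox4* to *Cox8*, or is *Cyc1* or one of *Sdha* to *Sdhd*. The rule found 76 of the 18762 genes, of which 34 belong to complex I, 3 to complex II, 8 to complex III, 17 to complex IV and 14 to complex V. *Ndufa4* and its relative *Ndufa4l2*, first named as complex I genes, were counted with complex IV, where the NDUFA4 protein is now placed. *Sdha*, *Cyc1* and the genes of the mitochondrial genome were not analysed here.

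LSK-SLAM cells, a bone marrow population enriched for HSCs and sorted on surface markers, came from 5 young mice of 4 to 5 months and 7 old mice of 20 to 22 months, ages taken from the labels where the text of the study names others. All were wild-type (Wt) C57BL/6 animals, and the label of each mouse also ends in the letter A or B, whose meaning was not given. Letter A stands for 2 young and 4 old mice, letter B for 3 young and 3 old mice. RNA of 15000 cells was depleted of ribosomal RNA, and 300 pg entered each library.

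Between 861047 and 5118507 reads per mouse fell on genes, and the members took 2424 to 22048 of them. Depth followed the letter, with 861047 to 3106243 reads in letter A and 3233516 to 5118507 in letter B, so that letter and depth cannot be told apart from the labels. A repeat-like transcript, *Gm10800*, took 7.18% to 18.6% of reads in letter A and 1.60% to 8.44% in letter B. A stem cell list joined the sort markers *Kit*, *Ly6a* and *Slamf1* with *Procr*, *Mecom* and *Hlf*, which were not sorted on. These 6 genes had reads in every mouse. Their summed level ran from 2326 to 4029 normalized read counts in the young and 1165 to 4269 in the old mice. Genes of granulocytes and monocytes summed to 322 to 1078 in young and 332 to 4585 in old mice, those of erythroid cells to 142 to 269 and 96.1 to 794, those of B cells to 61.8 to 136 and 58.5 to 168, those of T cells to 17.3 to 77.9 and 9.14 to 129, and those of megakaryocytes to 353 to 584 and 387 to 902. Genes of progenitors next to the gate summed to 167 to 293 in young and 98.0 to 139 in old mice, with no overlap. The sum rests mostly on *Cd34* (means of 182 and 84.5), beside *Flt3* (54.1 and 30.8) and *Cd48* (7.30 and 5.38). Taken singly, 0.461% of all genes tested had no overlap between the ages. No gene of these lists differed between the ages at an adjusted p under 0.05. *Cd34*, of the progenitor list, came closest, with 182 ± 53.0 (SD, n = 5) in young and 84.5 ± 10.4 (n = 7) in old mice. Its adjusted limma p was 0.0544, or 0.00856 with the letter as a covariate. *Flt3*, of the same list, had a difference of −0.87 (adjusted limma p = 0.78, or 0.0523 with the letter). In the megakaryocyte list *Vwf* had 0.77 (adjusted limma p = 0.78, or 0.058 with the letter) and *Pf4* −1.33 (adjusted limma p = 0.796, or 0.334 with the letter). Their part in the results below was not tested. In bulk RNA, fewer cells of a type and less RNA per cell cannot be told apart.

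Oxidative phosphorylation makes ATP in the inner mitochondrial membrane. Complexes I and II pass electrons from NADH and succinate to coenzyme Q, complex III passes them on to cytochrome c, and complex IV hands them to oxygen. Complexes I, III and IV pump protons as they do so, and complex V, the ATP synthase, uses the returning protons to make ATP. HSCs are known for low mitochondrial activity while dormant, and they raise it when they divide or differentiate.

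Many promoters of this pathway are known to bind nuclear respiratory factor 1 (NRF1) and GABP, a factor of the ETS family, so the 250 bases before each gene start were read from RefSeq (GRCm38.p6). Windows were found for 63 of the 76 members. The letters GCGCANGCG, the core of the NRF1 motif, stood on either strand in 11 of these 63 members (17.5%), in 5.86% of all 27025 genes with a window and in 10.8% of the 9847 such genes that were tested here. The ETS letters CCGGAAG stood in 14 members (22.2%), in 7.83% of all genes and in 13.4% of those tested. For the YY1 letters AAGATGGCG the shares were 1.59%, 0.71% and 1.17%, and for the TATA letters TATAAA they were 9.52%, 14.3% and 9.38%. The 63 members include untested ones, so their shares and those of the tested genes are not over like sets. Among the holders of the NRF1 letters, *Ndufs5*, *Atp5k* and *Atp5l* were not tested. None of the 4 strings contains another. By complex, the NRF1 letters were found in 4 of 30 members of complex I, 1 of 2 of complex II, 0 of 5 of complex III, 1 of 13 of complex IV and 5 of 13 of complex V. A match is a description of the sequence and was not tested as a site.

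The windows below show the NRF1 letters in capitals, with up to 60 bases on each side, for the member with the highest level in each complex that holds them. They lie at chr4:24897910-24898039 (plus strand) for *Ndufaf4*, a complex I assembly factor, chr9:50603860-50603988 (minus strand) for *Sdhd*, a membrane anchor of complex II, chr5:115349007-115349180 (minus strand) for *Cox6a1*, a complex IV subunit with the letters at 2 places, and chr2:10080433-10080509 (minus strand) for *Atp5c1*, the central stalk subunit of complex V. Each reads 5′ to 3′ towards the gene.
Ndufaf4: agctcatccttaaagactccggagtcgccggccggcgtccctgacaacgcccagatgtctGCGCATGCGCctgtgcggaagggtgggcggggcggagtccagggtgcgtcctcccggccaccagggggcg
Sdhd: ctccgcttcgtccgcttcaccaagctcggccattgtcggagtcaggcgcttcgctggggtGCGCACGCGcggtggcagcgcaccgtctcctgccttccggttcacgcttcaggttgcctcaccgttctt
Cox6a1: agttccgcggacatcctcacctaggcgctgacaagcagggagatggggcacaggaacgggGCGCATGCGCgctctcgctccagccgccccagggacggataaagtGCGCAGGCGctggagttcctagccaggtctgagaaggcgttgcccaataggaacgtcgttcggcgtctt
Atp5c1: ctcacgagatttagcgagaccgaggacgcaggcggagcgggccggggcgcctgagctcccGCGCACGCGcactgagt

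Levels of the members spanned a wide range within each complex. Levels were divided by exon length, which here joins the exons of all annotated transcripts of a gene. This length can exceed that of the mRNA and then lowers the value, so genes are compared only roughly. Per kilobase of exon, the mean normalized read count over 12 mice was highest for 3 catalytic-head and stalk genes of complex V. It was 152 for *Atp5a1* (subunit alpha), 127 for *Atp5b* (the catalytic subunit beta) and 112 for *Atp5c1*. These 3 genes held 34.2% of all reads on the members. *Cox8a* and *Cox6b1*, both small subunits of complex IV, followed with 109 and 77.3 per kilobase. In complex I the highest was *Ndufs8*, an iron-sulphur subunit of the core, with 58.5. In complex III it was *Uqcrc2*, a core protein, with 45.7, and in complex II *Sdhd* with 32.3. Members with a mean normalized read count under 10 were not tested, which left 64: 31 of complex I, 3 of complex II, 7 of complex III, 11 of complex IV and 12 of complex V. The 12 untested members were *Ndufa1*, *Ndufs5*, *Ndufaf8*, *Uqcrq*, *Cox4i2*, *Cox6a2*, *Cox7a1*, *Cox7b2*, *Cox8b*, *Ndufa4l2*, *Atp5k* and *Atp5l*.

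**Figure D1:**
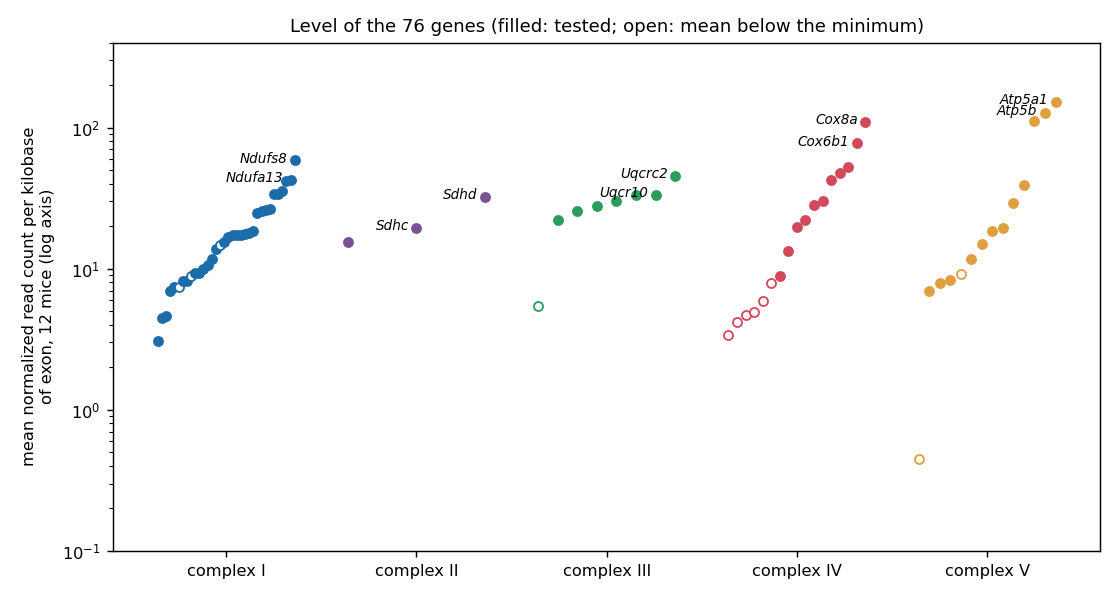
Mean normalized read count per kilobase of exon over 12 mice (log axis) for the 76 genes, ranked within each complex, with the highest 2 of each complex named. Filled points are the 64 tested genes, open points the 12 with a mean under 10. *Atp5a1*, *Atp5b* and *Atp5c1* of complex V stand at 112 to 152, and complex IV holds both high genes such as *Cox8a* and 6 untested ones.

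The first comparison asked whether the respiratory complexes differ in level between young and old HSCs. No member passed the test: 0 of the 64 had an adjusted p under 0.05 (limma on log2(normalized read count + 1), Benjamini-Hochberg over 12354 genes), where 13 of all genes tested did (0.105%). At an unadjusted p under 0.05 there were 2 members, against 3.95% of all genes, and the 95% confidence interval of the difference lay within 1 log2 unit of 0 in 45 of the 64. EdgeR's quasi-likelihood test on recovered reads called 0 members (0.146% of all genes; 2 members unadjusted, 3.96% of all genes). DESeq2 called 0 as well (0.461% of all genes; 1 member unadjusted, 4.79% of all genes), but it gave no adjusted p for 13 of the 64 members and 3353 of all genes, which could not be called. With the letter as a covariate limma called 0 members (0.299% of all genes), and 4 members had an unadjusted p under 0.05 (5.2% of all genes). In none of the 64 did the values of young and old mice fail to overlap (0.461% of all genes did not overlap).

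The estimates leaned to lower values in old mice without passing the test. The difference, old minus young, was below 0 in 50 of 64 members and had a median of −0.17 log2 units, where the median over all genes tested was −0.02 and 52.3% of all genes were below 0. Genes with a mean of at least 50 had a median of −0.08, and the 20 members at that level −0.21. With the letter as a covariate the median was −0.16 over the members and −0.05 over all genes. The members' median depended on single mice. It was −0.10 without old mouse 5 and −0.11 without young mouse 5, and −0.07, against −0.04 over all genes, without the pair of shallowest mice (old 5 and old 7), an alternative chosen after the data were seen. As a share of reads the members took 0.397% ± 0.0466 (SD, n = 5) in young and 0.347% ± 0.0525 (n = 7) in old mice. The lowest shares were 0.282% in old 7 and 0.305% in old 5, but old 4 at 0.441% was close to young 5, the highest mouse, at 0.444%.

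**Figure D2:**
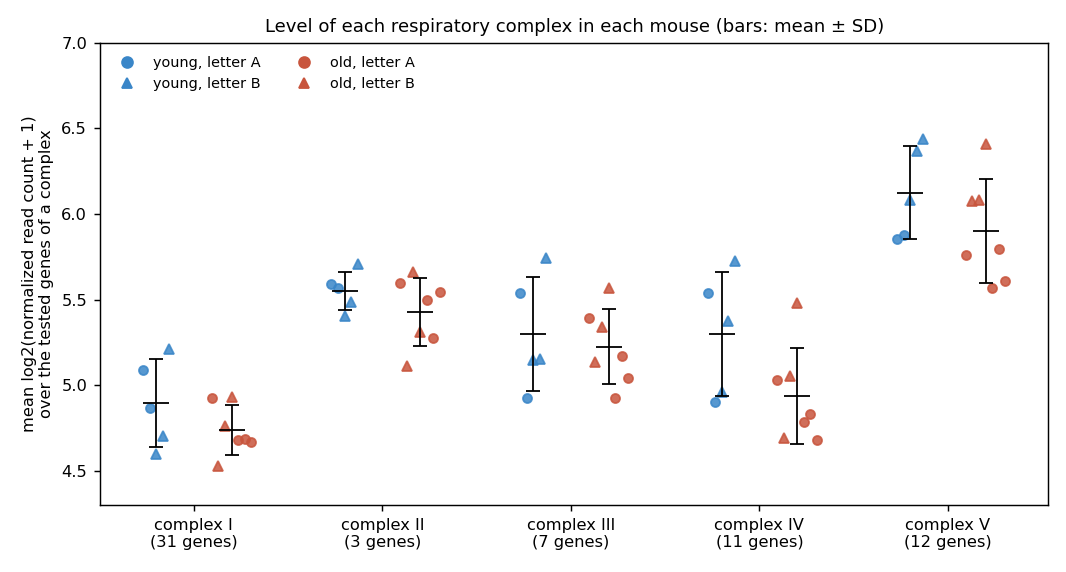
Mean log2(normalized read count + 1) over the tested genes of each complex, with 1 point per mouse, coloured by age and shaped by letter, and the mean ± SD of each age. Young and old overlap in all 5 complexes, and in complex V the letter B mice (triangles) of both ages lie above the letter A mice (circles).

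In complex I, the NADH dehydrogenase, 23 of 31 members had a lower mean log2 level in old mice and none passed the test. The median difference was −0.11. Over the 31 genes the mean log2 level was 4.90 ± 0.257 (SD, n = 5) in young and 4.74 ± 0.146 (n = 7) in old mice, and the difference of −0.15 was smaller than the pooled SD of 0.198. All 6 core subunits, which carry the flavin and iron-sulphur centres, were below 0 by limma, with or without the letter, with *Ndufs8* lowest. By edgeR and by DESeq2 5 of the 6 were below 0. Within letter A it was 5 of 6 and within letter B 3 of 6. *Ndufs8* (chromosome 19, 3908863 to 3912774, minus strand) had normalized read counts of 90.5, 80.3, 78.5, 92.2 and 82.8 in the young mice. In the old mice it ran from 36.3 through a median of 70.3 to 94.9, so that the ages overlapped and old 5 was lowest (difference −0.35, SE 0.21, unadjusted limma p = 0.117). *Ndufb7*, an accessory subunit of the membrane arm, had 30.2, 28.4, 13.3, 23.7 and 33.5 in young and 12.3 to 25.8, median 16.6, in old mice (difference −0.54, SE 0.31, unadjusted limma p = 0.0939). *Ndufs1*, the largest core subunit and the member of complex I with most reads, had 79.0, 95.7, 99.9, 87.3 and 97.2 in young and 52.1 to 106, median 84.9, in old mice. Its values overlapped widely. The 20 tested accessory subunits had a median difference of −0.19, and the 5 tested assembly factors (*Ndufaf1*, *Ndufaf3*, *Ndufaf4*, *Ndufaf5* and *Ndufaf6*) one of 0.02.

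Complex II, succinate dehydrogenase, is also an enzyme of the tricarboxylic acid cycle and is encoded wholly in the nucleus. Its 3 members had a median difference of −0.17, and the mean log2 level was 5.55 ± 0.114 (SD, n = 5) in young and 5.43 ± 0.199 (n = 7) in old mice. *Sdhd* (chromosome 9, 50596357 to 50603812, minus strand) had normalized read counts of 47.3, 32.2, 54.0, 49.6 and 41.7 in young and 29.5 to 46.1, median 35.4, in old mice. Young 2 and young 5 lay inside the old range and the other 3 young mice above it (difference −0.31, SE 0.20, unadjusted limma p = 0.15). *Sdhc*, the second membrane anchor, had 60.3, 86.5, 43.0, 62.2 and 92.8 in young and 49.3 to 69.9 in old mice. *Sdhb*, the iron-sulphur subunit, had 36.7, 35.6, 30.6, 27.1 and 34.7 in young and 25.6 to 46.7 in old mice, with a difference of 0.11.

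In complex III, the cytochrome bc1 complex, 4 of 7 members were below 0, the median was −0.07, the closest to 0 of the 5 complexes, and the mean log2 level was 5.30 ± 0.332 (SD, n = 5) in young and 5.23 ± 0.220 (n = 7) in old mice. *Uqcrh*, the hinge protein near cytochrome c1, had normalized read counts of 54.4, 29.8, 41.0, 52.2 and 64.9 in young and 22.2 to 57.6, median 34.4, in old mice (difference −0.43, SE 0.25, unadjusted limma p = 0.102). *Uqcrfs1*, the Rieske iron-sulphur protein, lay the other way, with 32.0, 28.4, 38.9, 25.1 and 33.8 in young and 23.7 to 51.7, median 36.2, in old mice (difference 0.19, SE 0.23, unadjusted limma p = 0.42). *Uqcrc1*, a core protein, had 112, 69.7, 136, 155 and 133 in young and 69.5 to 181, median 141, in old mice, and its difference of 0.08 turned to −0.11 without young 2.

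Complex IV, cytochrome c oxidase, had the lowest median of the 5 complexes, −0.44, and 10 of its 11 tested members were below 0. Both members with an unadjusted limma p under 0.05 belong to it. With the letter as a covariate the median was −0.38 and 8 of 11 were below 0. The mean log2 level of the complex was 5.54, 4.90, 4.96, 5.37 and 5.73 in the young mice, and in the old mice it ran from 4.68 through a median of 4.83 to 5.48. Old 4, at 5.48, lay above 3 of the 5 young mice, and the difference of the means, −0.36, compares with a pooled SD of 0.315. Whether complex IV differed from the other complexes was not tested.

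*Cox4i1* (chromosome 8, 120668222 to 120674207, plus strand), the ubiquitous form of a regulatory subunit, had normalized read counts of 100, 85.1, 67.1, 87.9 and 95.8 in young mice. In old mice the values were 86.3, 60.5, 46.0, 85.5, 76.6, 53.4 and 49.2, so that 4 old mice lay below every young mouse and the other 3 within the young range. The difference was −0.44 (SE 0.20, 95% interval −0.86 to −0.015, unadjusted limma p = 0.0432, adjusted p = 1; two-sided exact permutation p = 0.0505). *Cox7a2l* (chromosome 17, 83501918 to 83517330, minus strand), a relative of the *Cox7a* subunits named for supercomplexes of complexes III and IV and known to be a short form in C57BL/6 mice, had 77.5, 74.0, 103, 102 and 96.7 in young mice. The old mice had 77.7, 88.6, 69.5, 84.4, 35.5, 58.5 and 57.8, with old 5 lowest. The difference was −0.46 (SE 0.22, 95% interval −0.92 to −0.0049, unadjusted limma p = 0.0478, adjusted p = 1; two-sided exact permutation p = 0.048). *Cox7a2l* also differed between the letters, and with the letter as a covariate its difference was −0.38 (unadjusted limma p = 0.0585).

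Other subunits of complex IV had an unadjusted limma p above 0.05. *Cox7c* had normalized read counts of 32.4, 28.8, 34.5, 53.8 and 70.2 in young and 9.04 to 53.3, median 18.9, in old mice. The 4 old mice under 20 all carried the letter A. Its difference was −0.85 (SE 0.41, 95% interval −1.72 to 0.01), and it was −1.15 within letter A and −0.18 within letter B. With the letter as a covariate it was −0.63 (unadjusted limma p = 0.0295). *Cox6a1* had 39.8, 19.2, 35.9, 37.7 and 56.7 in young and 12.4 to 33.8, median 25.8, in old mice, with a difference of −0.66 (SE 0.31) that was −0.29 within letter A and −0.91 within letter B. Its unadjusted p was 0.0476 by edgeR, 0.0434 by DESeq2 and 0.049 by limma with the letter. *Cox8a* had 75.6, 47.6, 56.5, 93.6 and 108 in young and 23.4 to 99.6 in old mice, and *Cox6b1* 67.2, 51.0, 38.1, 63.97 and 83.7 in young and 27.8 to 64.7 in old mice. Both overlapped widely.

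Complex V, the ATP synthase, had 11 of 12 tested members below 0 with a median of −0.19, and none passed the test. With the letter as a covariate 8 of the 12 were below 0 and the median was −0.15, and within letter A and within letter B it was 8 of 12 each, with medians of −0.25 and −0.07. Its mean log2 level was 6.12 ± 0.271 (SD, n = 5) in young and 5.90 ± 0.302 (n = 7) in old mice. The 5 subunits of the catalytic F1 head and its stalk (*Atp5a1*, *Atp5b*, *Atp5c1*, *Atp5d* and *Atp5e*) were all below 0, with a median of −0.28, and 4 of the 5 were below 0 with the letter as a covariate. *Atp5b* (chromosome 10, 128083273 to 128090391, plus strand) had normalized read counts of 593, 387, 678, 670 and 638 in young and 294 to 627, median 525.5, in old mice, and old 5 and old 7 were lowest (difference −0.28, SE 0.25). *Atp5d*, the delta subunit, had 50.4, 49.5, 95.2, 73.6 and 65.2 in young and 25.3 to 65.8, median 55.8, in old mice (difference −0.46, SE 0.26, unadjusted limma p = 0.0967). *Atp5j2*, a membrane subunit, had 27.7, 26.4, 28.3, 26.7 and 57.6 in young and 14.6 to 37.1, median 17.6, in old mice (difference −0.52, SE 0.32, unadjusted limma p = 0.118). Young 5 alone lay at 57.6, and the other 4 young mice were inside the old range.

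**Figure D3:**
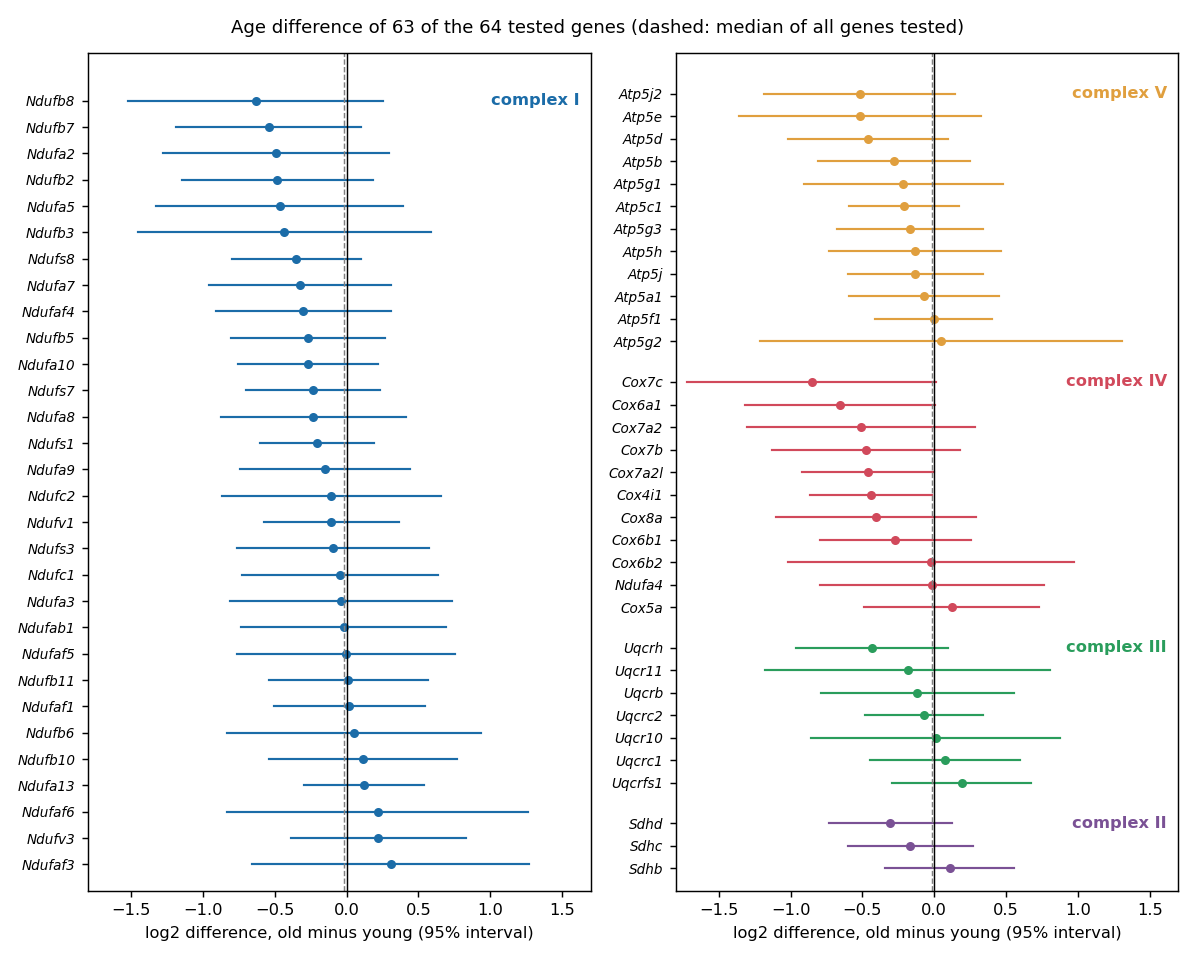
Log2 difference, old minus young, with its 95% confidence interval for 63 of the 64 tested genes, complex I on the left and complexes II to V on the right. The dashed line is the median of all genes tested, −0.02, and 49 of the 63 points lie below 0 while all intervals but those of *Cox4i1* and *Cox7a2l* include 0.

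Some subunits have several gene forms, and the ubiquitous form was the higher in every pair compared per kilobase. *Cox4i1* stood at 48.0 normalized read counts per kilobase and *Cox4i2*, the lung form, at 7.97. *Cox6a1* stood at 42.2 and *Cox6a2*, the heart and muscle form, at 4.73, *Cox7a2* at 19.7 and the muscle form *Cox7a1* at 5.87, *Cox7b* at 22.1 and *Cox7b2* at 3.39, and *Cox8a* at 109 and the muscle form *Cox8b* at 4.93. *Cox6b1* stood at 77.3 and *Cox6b2*, the testis form, at 13.3, the only such form that was tested. *Ndufa4* stood at 28.1 and *Ndufa4l2* at 4.17. The low forms were near the limit of the depth. *Cox6a2*, *Cox7b2* and *Cox8b* each had 3 or fewer reads in 6 of 12 mice. Of the 3 genes for the same c-ring subunit, *Atp5g3* stood at 15.1 per kilobase, *Atp5g2* at 7.91 and *Atp5g1* at 6.96. This order rests on joined exon lengths of 2181, 1675 and 4912 bases, and without the division by length *Atp5g1* was not the lowest. Their age differences were −0.17, 0.05 and −0.22, and all 3 intervals included 0.

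Within each letter the age comparison was made again. Among the 6 letter A mice the members' median difference was −0.26, against −0.03 over all genes, and 47 of 64 were below 0. Among the 6 letter B mice it was −0.08, against −0.04, and 39 were below 0. Limma called 0 members within either letter, where 0.00809% of all genes were called within letter A and 0.809% within letter B. At an unadjusted p under 0.05 it found 1 member within letter A (2.57% of all genes), *Cox7c*, and 3 within letter B (8.05% of all genes), *Cox6a1*, *Uqcrh* and *Ndufb2*, an accessory subunit of complex I, each with a lower estimate in old mice. Below 0 within both letters were 27 of the 64 members (42.2%), against 29.2% of all genes tested, and 5 were above 0 in both (7.81%, against 21.3% of all genes). Complex IV had 8 of its 11 members below 0 in both letters, complex I 11 of 31, complex II 2 of 3, complex III 1 of 7 and complex V 5 of 12. The product of age and letter, which tests whether the age difference differs between the letters, was called in 0 members by limma (0.0162% of all genes) and in 0 members also by edgeR, and 0 members had an unadjusted p under 0.05 (3.43% of all genes).

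**Figure D4:**
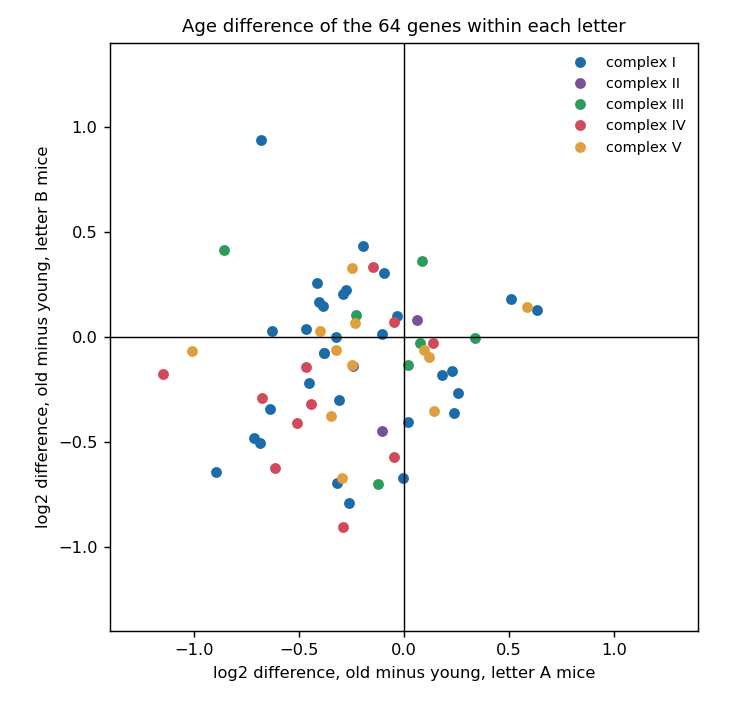
Log2 difference, old minus young, within the letter A mice (horizontal) and within the letter B mice (vertical) for each of the 64 tested genes, coloured by complex. The lower left field holds 27 genes, the upper left 20, the lower right 12 and the upper right 5.

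The letters themselves differed. With age in the fit, 8 members were higher in letter B (10.5% of all genes were) and 0 were lower (25.6% of all genes were, as 3161 genes). The members were *Atp5g2*, *Atp5h*, *Atp5d* and *Atp5b* of complex V, *Cox7c* and *Cox7a2l* of complex IV, *Uqcrb* of complex III and *Ndufv3* of complex I. Their share, 8 of 64, is near the background, and *Atp5g2* passed the minimum mean of 10 only through letter B, so that it had to differ. Among all genes with a mean of at least 50 the median letter difference was 0.30 and 16.8% were below 0, and among the 20 members at that level it was 0.29. Rescaling by median ratios moved the median of all genes from −0.09 to 0.21, the genes called from 1301 higher and 3161 lower to 3360 and 2541, and the members called to 16 higher and 0 lower. Relative to the median of all genes the members' median was 0.18 under both scalings. Markers of other cells are given beside the letter too. Of the tested markers, 3 of 9 granulocyte and monocyte genes, 3 of 9 erythroid genes, 3 of 4 B cell genes 1 of 2 T cell genes and 1 of 2 genes of progenitors next to the gate (*Flt3*) were lower in letter B, where 25.6% of all genes were. Higher were 1 of 4 megakaryocyte genes (*Vwf*) and 2 of 6 genes of the stem cell list, *Mecom* and *Hlf*, which were not sorted on. The granulocyte and monocyte genes summed to 322 to 4585 in letter A and 332 to 1078 in letter B. Those of the stem cell list summed to 1165 to 3216 and 3068 to 4269. Their part in the letter difference was not tested.

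*Atp5g2* (chromosome 15, 102662864 to 102672352, minus strand), a c-ring gene, had normalized read counts of 3.11, 4.81, 3.62, 8.68, 5.67 and 8.61 in letter A and 14.3, 19.6, 23.2, 16.7, 35.9 and 14.8 in letter B, with no overlap. The letter difference was 1.75 (SE 0.41), given as a description because all its letter A values lay under the minimum of 10. *Cox7c* (chromosome 13, 86044816 to 86046904, minus strand) had 32.4, 28.8, 9.04, 18.9, 16.1 and 11.1 in letter A and 34.5, 53.8, 70.2, 47.8, 35.3 and 53.3 in letter B, again with no overlap (difference 1.28, SE 0.27, adjusted limma p = 0.00131). *Atp5h*, the d subunit of the peripheral stalk, ran from 31.6 to 49.2 in letter A and from 53.0 to 95.8 in letter B (difference 0.82, SE 0.21, adjusted limma p = 0.00457). These 3 were the members without overlap between the letters, as were 10.5% of all genes tested. *Cox7c* and *Atp5h* were also called in every alternative that tested them, 18 and 19 of them, and *Uqcrb*, a small complex III subunit, in 16 of 18. The other 4 were called in 4 to 11 alternatives. With reads thinned to the 861047 of the shallowest mouse, 7 members were called higher (8.77% of all genes), and *Ndufb8*, an accessory subunit of complex I, was called lower (21.5% of all genes).

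All 8 letter-called members share some sequence with other annotated genes. In GENCODE vM21, 38.3% of the 50-base words of *Atp5g2*, 25.5% of those of *Uqcrb*, 22.1% of those of *Cox7c* and 19.9% of those of *Atp5h* also occur in other genes, such as *Gm10175*, *Gm16089*, *Gm10012* and *Gm10250*. The share was 13.8% for *Cox7a2l*, 2.30% for *Atp5b*, 1.25% for *Atp5d*, whose words lie in *Cbarp* on the opposite strand, and 0.70% for *Ndufv3*. Of the 38 tested members with a shared word, however small the share, 8 were called between the letters, and of the 26 without one 0 were. *Atp5g2*, which passed the minimum mean only through letter B, is among the 8. Over all genes 10.5% were higher in letter B. All genes were not split by shared words, so these counts have no background of their own. The part of shared sequence in the letter difference was not tested. Some members with large shares were not called, such as *Ndufb6* with 31.6% and a letter difference of −0.10. *Ndufa13* had 28.5% and −0.02, and *Cox8a*, with 0%, was called in 7 of 19 alternatives. How reads from such copies were assigned is not given in the sources used here, and the levels of the members with the larger shares are uncertain to that extent. Exons of 24 of the 76 members also overlap a gene on the opposite strand, and whether reads were counted by strand is likewise not given.

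**Figure D5:**
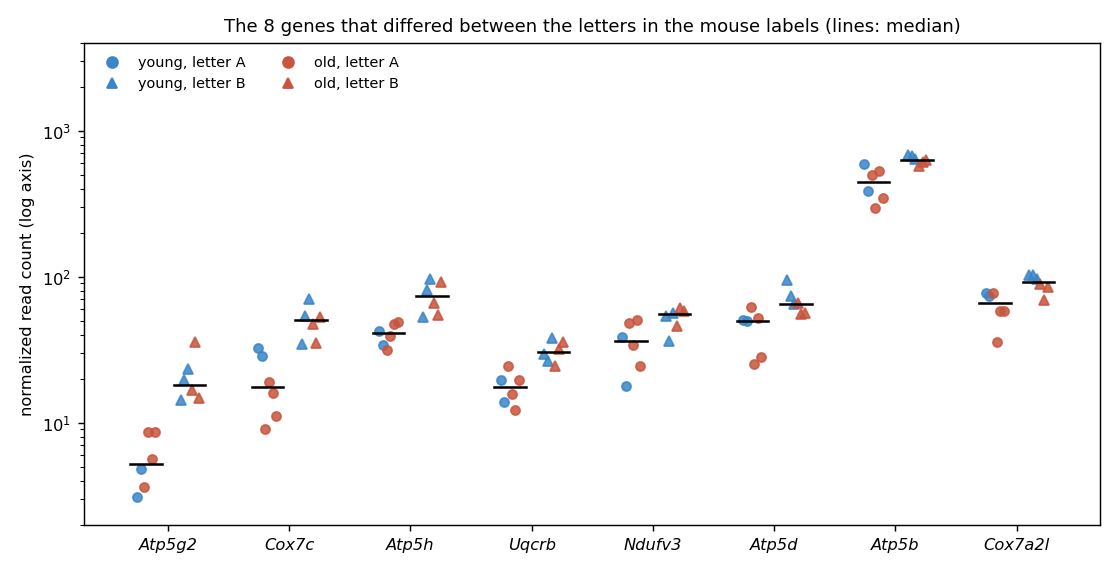
Normalized read counts (log axis) of the 8 genes that differed between the letters, with 1 point per mouse, letter A left (circles) and letter B right (triangles), coloured by age, and a line at each median. *Atp5g2*, *Cox7c* and *Atp5h* do not overlap between the letters, and young and old mice mix within a letter.

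Neighbouring pathways were counted in the same way. Over all genes tested, limma called 0.105% between the ages, 3.95% had an unadjusted p under 0.05 and 52.3% were below 0. At so low a share of called genes, 0 calls in a short list say little. Of 36 tested assembly factors outside the rule and cytochrome c, 0 were called between the ages (limma) and 21 were above 0 with a median of 0.08. *Cycs*, somatic cytochrome c, which carries electrons from complex III to IV, had 25.2 ± 8.17 normalized read counts (SD, n = 5) in young and 13.0 ± 8.0 (n = 7) in old mice and was the only one of them at an unadjusted p under 0.05. Its difference was −1.06 (unadjusted limma p = 0.0272, adjusted p = 1), and it also differed between the letters by 1.23 (adjusted limma p = 0.007). Of 11 enzymes of the tricarboxylic acid cycle 0 were called and 10 were below 0, with a median of −0.11 and *Idh3b*, a subunit of isocitrate dehydrogenase, at −0.38. Of 14 regulators of mitochondrial transcription and biogenesis 0 were called and 9 were below 0, with a median of −0.03. Among them *Nrf1*, whose letters are shown above, had 76.8 ± 8.81 in young and 68.2 ± 12.6 in old mice, *Gabpa* 207 ± 32.8 and 176 ± 39.1, and *Ppargc1a*, a coactivator of mitochondrial biogenesis, 29.6 ± 13.0 and 38.2 ± 16.3. At an unadjusted p under 0.05 there were 0 genes of either of the last 2 lists.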

How the data were processed

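Transcriptomes of sorted LSK-SLAM cells (5 young and 7 old Wt mice) were read from a table of normalized read counts with 1 column per mouse. The labels list 24 samples, 2 for each of 12 mice, and each mouse was counted once. The labels do not say whether animals were pooled, and p-values measure the spread between these 12 samples. The deposited values are a signal in which the authors had scaled the reads of each gene to a corrected library size. The submitters' processing notes name FastQC 0.11.8, STAR 2.5.4b, edgeR 3.24.3 and mm10, and the counting tool, its annotation and its use of strand are not given in the sources used here. A second deposited table holds the authors' own comparison (log2 fold changes, log2 CPM, likelihood ratios, p-values and their FDR) and was not used.

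Every value was divided by the worth of 1 read in that mouse to recover whole reads, and 100% of values came out whole within 0.01. Recovered reads numbered 861047 to 5118507 per mouse, and deeper libraries carry less counting error. Differences were tested with limma 3.58.1 in R 4.3.3 (lmFit, eBayes with trend) on log2(value + 1), so that fold changes of low genes are understated. Genes needed a mean of at least 10, p-values were Benjamini-Hochberg adjusted over 12354 genes, and a gene was called at an adjusted p under 0.05. Single values were compared by exact permutation over 792 splits. Count tests on the recovered reads used edgeR 4.0.16 and DESeq2 1.42.0 and called 18 and 57 of all genes between the ages. GENCODE vM21 (GRCm38) gave positions, exon lengths and 50-base words shared between genes, and RefSeq GRCm38.p6 gave promoters. Tables were handled with pandas 2.3.3, numpy 2.4.6 and scipy 1.17.1 in Python 3.11.15.

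Genes were named by a rule: in each complex the 2 tested members with the lowest age p and the member with the highest level, any called between the ages, the 2 with the largest letter difference, the succinate dehydrogenase genes, the isoforms of one subunit, and those of them in which a mouse stood apart. Other genes named were chosen after their values were seen, and 1 member, kept in every count, is not reported here by itself. The members and lists were chosen with earlier results of these data known. Alternatives were other pseudocounts and minimum means, no trend, the letter as a covariate, either letter alone, median-ratio scaling, a replicate block, the count tests, thinned reads and each mouse left out in turn. Fits of replicates 1 to 5 without the block and without the 2 shallowest mice were added after the data were seen.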

Additional observations from a re-analysis of the deposited data

Results flagged for a closer look

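Examined were 74 groups: the young and the old mice for each named gene, for the level of each complex and for that of all members. In 6 of them a mouse stood apart from the others of its age by Dixon's criterion. About 3.7 would be expected if values were normal and groups independent. Low read counts and overlapping levels need not meet this, so the 2 numbers cannot be weighed against each other. *Atp5g2* was 35.9 normalized read counts in old 3 and 3.62 to 16.7 in the other old mice. *Atp5j2* was 57.6 in young 5 and 26.4 to 28.3 in the other young mice. *Ndufa4* was 84.0 in old 4 and 23.5 to 48.8 in the other old mice. The remaining 3 concern tissue forms with few reads: *Cox6a2* at 12.02 in young 2 against 0 to 1.47, *Cox8b* at 4.81 in young 2 against 0 to 0.981, and *Cox7a1* at 11.1 in old 7 against 1.01 to 2.37.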

How the results depend on the processing

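In all 28 alternatives of the age comparison 0 members were called, and the members' median stayed below that of all genes, by 0.26 to 0.04 log2 units. Leaving out each mouse in turn, the median age difference ran from −0.22 to −0.02 in complex I, −0.24 to −0.05 in complex II, −0.16 to 0.07 in complex III, −0.52 to −0.32 in complex IV and −0.27 to −0.12 in complex V. In letter A alone and in letter B alone it was −0.31 and −0.08 in complex I, −0.11 and −0.14 in complex II, 0.02 and −0.0069 in complex III, −0.45 and −0.29 in complex IV and −0.25 and −0.07 in complex V. Genes called between the ages, members or not, numbered 13 in the reported fit, 1 in letter A alone, 100 in letter B alone, 37 with the letter as a covariate, 57 with DESeq2, 81 and 43 with DESeq2 and edgeR and the letter, 49 without the 2 shallowest mice, 5 with median-ratio scaling, 2 without the trend and 3 to 32 when each mouse was left out, with 32 without old 5.

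Members called between the letters numbered 4 with edgeR (8.30% of all genes were higher), 16 with median-ratio scaling (27.2%) and 1 of 20 with a minimum mean of 50 (17.3%), where the reported fit called 4 of these 20, against 8 of 64 (10.5%). Leaving out each mouse gave 3 to 11 (5.71% to 13.4%), with 3 without old 4 or young 2, 4 without old 3 or old 7 and 5 without young 3 or young 4. The cause was not tested.

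No pairing by replicate number was assumed in the reported fit. Over 5 pairs the mean correlation of same-numbered young and old mice was 0.136 (−0.559 to 0.615), against −0.023 over the other pairs. It was 0.18, 0.40 and 0.61 in the same-numbered pairs that share a letter, and −0.56 and 0.04 in those that do not. The replicate block over replicates 1 to 5 called 0 members (19 of all genes, against 8 in the same mice without the block).

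Age differences that changed sign were never called, and some of them varied widely between the alternatives. In letter A alone *Atp5g2* was 0.58 and *Uqcrc1* 0.34. *Atp5g1* was 0.14 in letter A alone, and *Atp5g3* was 0.025, *Ndufs1* 0.00039 and *Uqcrc1* −0.0069 in letter B alone. Leaving out each mouse in turn gave −0.11 to 0.21 for *Uqcrc1*, −0.31 to 0.32 for *Atp5g2*, −0.25 to 0.16 for *Cox6b2* and −0.36 to 0.18 for *Ndufa4*. *Cox6b2* was 0.11 with DESeq2, 0.12 with edgeR, 0.13 with either and the letter, 0.014 with the letter in limma, 0.070 in letter B alone and 0.0070 with a pseudocount of 5. *Ndufa4* was 0.12 without the 2 shallowest mice, 0.0020 with edgeR and the letter, 0.048 with the letter in limma, 0.14 in letter A alone and 0.11 for replicates 1 to 5 with or without the replicate block. Depth limits the low forms: 3 reads were worth up to 3.69 normalized read counts in the shallowest mouse, and the median half-width of the 95% interval of an age difference was 0.622 log2 units.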
